A study of Mus musculus with 13 samples.

Results

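Hypertrophic cardiomyopathy is a thickening of the heart muscle that is often caused by mutations in sarcomere proteins. The 10 genes described here encode proteins that anchor the sarcomere at its Z-disc or respond to mechanical stress there: Xirp1, Xirp2, Myot, Flnc, Ankrd1, Ankrd23, Csrp3, Tcap, Myoz2 and Ldb3. They were taken by symbol from the 55471 genes of the deposited table, and all 10 were found and passed the filter on low counts. Whole mouse hearts of 3 groups were profiled by bulk RNA-seq. R502W mavacamten comprised 4 libraries from R502W mice that drank mavacamten, an inhibitor of the cardiac myosin motor, at 2.5 mg/kg/day for 21 weeks. R502W control comprised 4 libraries from R502W mice without the drug, and WT control comprised 5 libraries from wild-type mice without the drug. R502W names an amino acid change in cardiac myosin-binding protein C, a thick-filament protein, and all 8 R502W libraries carry it. The labels name no promoter, Cre line or zygosity, and no WT group received the drug. The study's design puts the mice at 24 weeks of age, whereas the extraction protocol speaks of hearts aged 3 and 18 weeks, and no age is given for a single library. The libraries held between 16001651 and 17520706 expected counts in R502W mavacamten, between 15350622 and 19361103 in R502W control, and between 15420583 and 18218404 in WT control.

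The Z-disc is the lattice of α-actinin in which the actin filaments of neighbouring sarcomeres and the ends of titin are fixed. It passes force sideways to the cell membrane at costameres and lengthwise between cells at the intercalated disc. It also holds adaptor proteins that bind kinases, phosphatases and transcriptional cofactors, and several of their genes are known to respond to stretch or pressure load in the heart. Of the 10 genes, Xirp2 and Xirp1 encode Xin-repeat proteins that bind actin at the intercalated disc. Flnc encodes the actin crosslinker filamin C, and Myot encodes myotilin, which binds filamin C and α-actinin. Ankrd1 and Ankrd23 encode ankyrin repeat proteins that bind the spring region of titin and also occur in the nucleus. Tcap encodes telethonin, which caps the end of titin. Csrp3 encodes muscle LIM protein, Myoz2 encodes calsarcin-1, a tether of calcineurin, and Ldb3 encodes Cypher, a PDZ and LIM domain protein that binds α-actinin.

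Promoter windows are shown for genes that lay far apart or close together between the groups, so that their levels can be read beside their sequence. RefSeq windows on GRCm38.p6, from 250 bases before to 50 bases after the annotated start, were used for 7 of the 10 genes. These were Xirp2, Flnc, Ankrd1, Ankrd23, Csrp3, Myoz2 and Ldb3. No window was used for Xirp1, Tcap or Myot, so their promoters were not searched. Their absence here is no evidence that they lack a window or a motif. Each window used was searched on both strands for the M-CAT motif of TEAD factors (CATTCC), the MEF2 motif and the CArG box of serum response factor. An M-CAT match was present in the windows of Ankrd1, Ankrd23 and Flnc, a MEF2 match in those of Xirp2 and Myoz2 and a CArG match in that of Ldb3, while Csrp3 had none of the 3. Of all 32851 windows, 14.7% held an M-CAT match, 3.19% a MEF2 match and 1.63% a CArG match. No match overlapped another. In Ankrd1 the M-CAT letters, read from the opposite strand as GGAATG, began 210 and 123 bases before the start, in Ankrd23 they began 120 bases before it and in Flnc 104 bases before it. The MEF2 match began 74 bases before the start in Xirp2 and 33 bases before it in Myoz2. The Ankrd1 start used by RefSeq lies 255 bases inside the GENCODE gene model, and that of Ankrd23 lies further inside its gene model, at the start of a principal transcript. The windows lie at chr19:36119795-36120094 (minus strand, Ankrd1), chr1:36535690-36535989 (minus strand, Ankrd23), chr6:29433006-29433305 (plus strand, Flnc), chr2:67445752-67446051 (plus strand, Xirp2) and chr3:123034938-123035237 (minus strand, Myoz2). They are printed 5′ to 3′ along the gene, with the matched letters in capitals:
Ankrd1: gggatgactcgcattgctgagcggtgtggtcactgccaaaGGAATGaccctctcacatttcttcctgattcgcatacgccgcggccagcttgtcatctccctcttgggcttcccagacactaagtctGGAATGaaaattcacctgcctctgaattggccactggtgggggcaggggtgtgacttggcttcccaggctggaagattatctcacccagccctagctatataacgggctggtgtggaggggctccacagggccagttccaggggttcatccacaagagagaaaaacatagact
Ankrd23: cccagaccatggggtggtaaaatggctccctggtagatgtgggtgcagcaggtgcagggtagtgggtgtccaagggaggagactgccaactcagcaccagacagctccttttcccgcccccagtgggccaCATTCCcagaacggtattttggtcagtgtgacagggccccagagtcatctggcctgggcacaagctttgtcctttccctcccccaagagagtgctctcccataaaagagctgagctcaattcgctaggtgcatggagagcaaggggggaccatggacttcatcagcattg
Flnc: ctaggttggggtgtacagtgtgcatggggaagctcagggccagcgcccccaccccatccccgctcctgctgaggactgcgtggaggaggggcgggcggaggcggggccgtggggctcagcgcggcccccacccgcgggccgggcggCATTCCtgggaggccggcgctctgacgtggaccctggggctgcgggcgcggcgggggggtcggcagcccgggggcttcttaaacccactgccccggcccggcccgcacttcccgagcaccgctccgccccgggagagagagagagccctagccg
Xirp2: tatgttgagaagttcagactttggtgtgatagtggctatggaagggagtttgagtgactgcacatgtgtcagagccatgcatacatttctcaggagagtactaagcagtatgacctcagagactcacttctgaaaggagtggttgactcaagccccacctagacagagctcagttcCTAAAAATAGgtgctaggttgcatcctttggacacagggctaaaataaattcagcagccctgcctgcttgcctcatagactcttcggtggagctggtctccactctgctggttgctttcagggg
Myoz2: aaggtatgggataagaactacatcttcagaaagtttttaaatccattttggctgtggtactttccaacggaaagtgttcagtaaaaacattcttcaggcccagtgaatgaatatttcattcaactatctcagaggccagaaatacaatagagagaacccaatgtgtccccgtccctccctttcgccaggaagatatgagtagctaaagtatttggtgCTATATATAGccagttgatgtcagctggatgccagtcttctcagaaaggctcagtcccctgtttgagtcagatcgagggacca

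A match of letters is a description of the window and no evidence of binding. Ankrd1, Ankrd23, Flnc and Xirp2 were all higher in R502W hearts, and Myoz2, which shares the MEF2 match with Xirp2, was at similar levels in all groups, as described next.

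Levels are CPM, expected counts scaled to a common library size, with sizes adjusted by the trimmed mean of M-values. They were compared between groups of a joint edgeR fit, and a gene counts as called when its p-value, adjusted over all 15000 genes tested, was under 0.05. The 10 genes were selected on earlier results of these libraries, that is on their CPM in all 3 groups. Their values, fold changes and calls are therefore given as a description without a p-value, and nothing is read from their counts. Both R502W groups are set against the same WT libraries, and R502W control libraries enter 2 of the 3 comparisons. In whole-heart RNA, fewer cells of a type and less RNA per cell cannot be told apart. The labels give each library a number of its own but do not say whether every number stands for its own animal, so that p-values reflect variation among libraries.

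The Xin-repeat gene Xirp2 was highest in untreated R502W hearts, lower in treated R502W hearts and lowest in WT hearts. Xirp2 (chr2:67446002-67526614, GRCm38, plus strand) stood at 796, 608, 614 and 712 CPM in R502W mavacamten hearts, at 1250, 1091.5, 1073 and 842.5 CPM in R502W control hearts and at 340.1, 212, 275, 312 and 323 CPM in WT control hearts. All 13 libraries fell into 3 separate ranges, with R502W control highest, R502W mavacamten between and WT control lowest. The log2 fold change was 1.86 ± 0.15 in R502W control against WT control (SE), -0.64 ± 0.16 in R502W mavacamten against R502W control and 1.22 ± 0.15 in R502W mavacamten against WT control. Both comparisons with WT control were called, and the comparison of the treated with the untreated R502W hearts was not.

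Its relative Xirp1 did not share the lower level in treated hearts. Xirp1 (chr9:120013755-120023598, minus strand) stood at 273, 303, 281 and 273.5 CPM in R502W mavacamten, at 242, 261, 307 and 260.1 CPM in R502W control and at 186, 115, 142, 166 and 179 CPM in WT control. Every R502W library of either group lay above every WT library, and the 2 R502W groups overlapped. Its log2 fold change was 0.76 ± 0.12 in R502W control against WT control, 0.08 ± 0.13 in R502W mavacamten against R502W control and 0.84 ± 0.12 in R502W mavacamten against WT control. Per kb of exon, the ratio of Xirp2 to Xirp1 within a library was 1.42, 0.977, 1.07 and 1.27 in R502W mavacamten, 2.52, 2.04, 1.7 and 1.58 in R502W control and 0.89, 0.894, 0.943, 0.915 and 0.879 in WT control. The 3 groups did not overlap in this ratio, which spanned less than 0.1 among the WT libraries and reached its highest value in R502W control replicate 1. Xirp1 lies in the same stretch of the genome as the chemokine receptor gene Cx3cr1 on the same strand, but their exons do not overlap. Xirp2 overlaps the antisense gene Gm13601, which was listed at a mean expected count of 0.

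**Figure D1:**
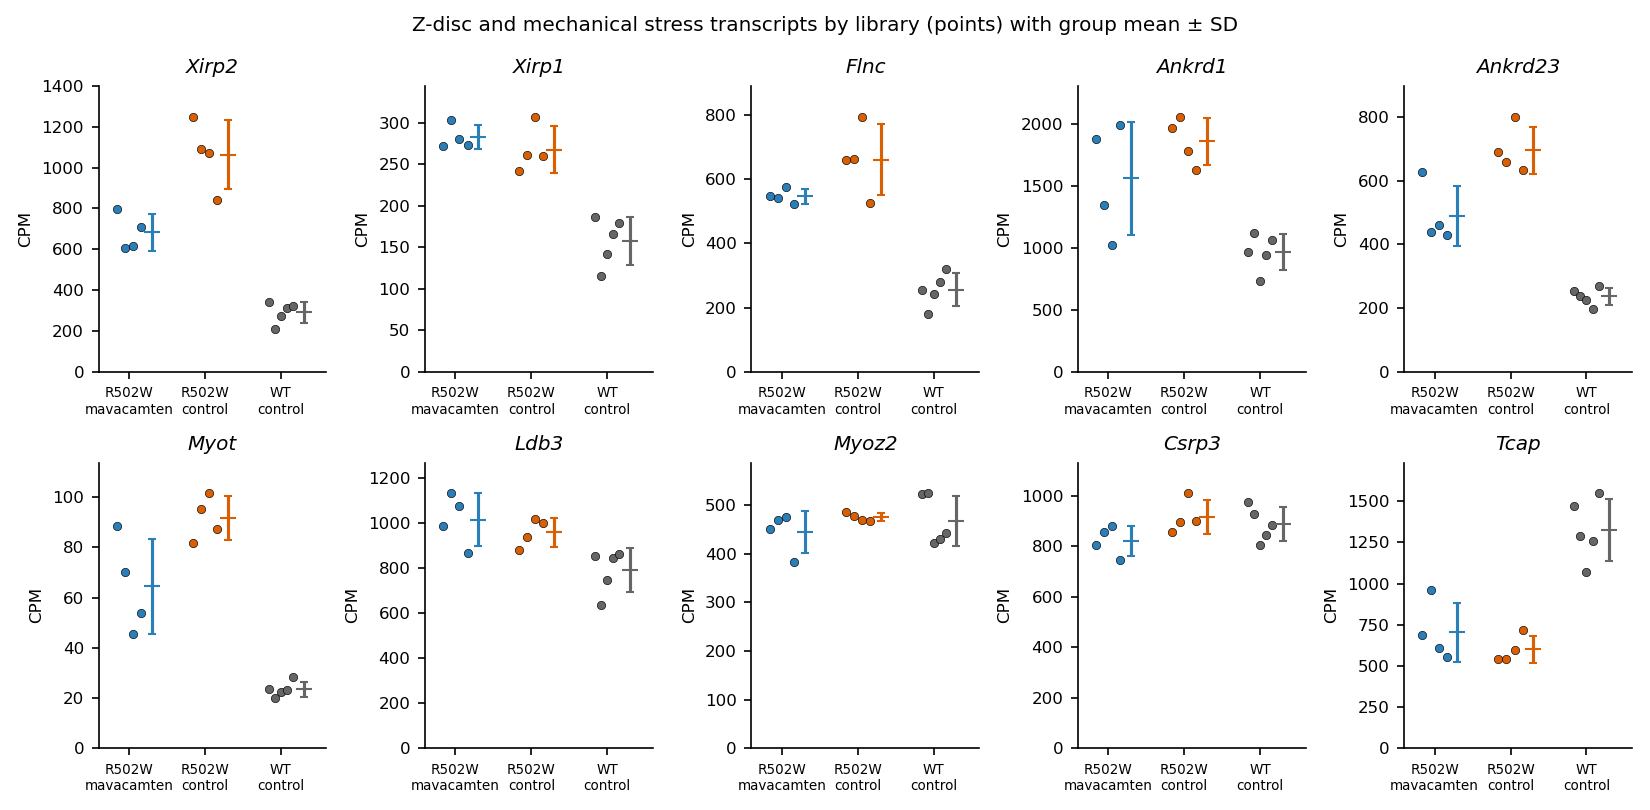
CPM of each of the 10 genes (y axis, from 0) in R502W mavacamten, R502W control and WT control hearts (x axis); each point is 1 library and each bar the group mean ± SD (n = 4, 4 and 5). Xirp2 forms 3 separate ranges, Xirp1, Flnc, Ankrd23 and Myot are above WT in both R502W groups, Tcap is below WT, and Csrp3 and Myoz2 overlap in all groups.

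Flnc and Myot, whose proteins bind each other, both stood higher in R502W hearts. Flnc (chr6:29433256-29461883, plus strand) was at 549, 541, 576 and 522 CPM in R502W mavacamten, at 659.9, 663, 795 and 527 CPM in R502W control and at 256, 182, 241, 279.9 and 321 CPM in WT control. All R502W libraries were above all WT libraries. R502W control replicate 4 lay within the range of the treated hearts, so the 2 R502W groups overlapped. Log2 fold changes of Flnc were 1.37 ± 0.15 in R502W control against WT control, -0.27 ± 0.15 in R502W mavacamten against R502W control and 1.10 ± 0.15 in R502W mavacamten against WT control. Its paralogue Flna, the filamin of non-muscle cells, differed by 0.10 ± 0.23 on the log2 scale between R502W control and WT control (edgeR adjusted p = 0.802). Its sign changed when a trend on transcript length was removed (-0.09) and without R502W control replicate 2 or WT control replicate 1 or 2 (-0.04 to -0.02).

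Myot was the lowest of the 10 genes in every library. On chromosome 18, at 44334074 to 44355724 of the plus strand, it stood at 88.4, 70.3, 45.5 and 53.8 CPM in R502W mavacamten, at 81.8, 95.4, 102 and 87.5 CPM in R502W control and at 23.5, 20.2, 22.3, 23.4 and 28.4 CPM in WT control. No R502W library came down to the WT range, and replicate 1 of the treated hearts lay inside the range of the untreated R502W hearts, while the other 3 lay below it. The log2 fold change was 1.96 ± 0.16 in R502W control against WT control, -0.51 ± 0.17 in R502W mavacamten against R502W control and 1.45 ± 0.16 in R502W mavacamten against WT control. The first of these was the largest among the 10 genes. Myot spread more among treated hearts (coefficient of variation 29.4%) than among R502W control (9.48%) or WT control hearts (12.9%). Mypn and Palld encode relatives of myotilin with a similar set of immunoglobulin domains. Mypn was at 142 ± 22.7 CPM in R502W mavacamten, 154 ± 20.2 CPM in R502W control and 98.1 ± 17.7 CPM in WT control, and rose by 0.65 ± 0.14 on the log2 scale in R502W control against WT control (edgeR adjusted p = 0.012). The genotype call of Mypn ended, at 0.62, without 3 libraries that were low in the atrial gene Bmp10, which are described with Ankrd1. Palld was at 249 ± 26.1, 243 ± 14.8 and 190.1 ± 48.5 CPM in R502W mavacamten, R502W control and WT control, and its genotype difference of 0.35 ± 0.17 was not called (edgeR adjusted p = 0.181).

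The titin-binding ankyrin repeat genes were both higher in R502W control than in WT control hearts. Ankrd1 (chr19:36111961-36120099, minus strand) stood at 1875, 1347.5, 1021 and 1989 CPM in R502W mavacamten, at 1962, 2056, 1782 and 1622 CPM in R502W control and at 966, 1121, 734, 942 and 1058 CPM in WT control. The untreated R502W hearts were all above WT, whereas the treated hearts ran from inside the WT range to inside the R502W control range. Log2 fold changes of Ankrd1 were 0.94 ± 0.18 in R502W control against WT control, -0.25 ± 0.19 in R502W mavacamten against R502W control and 0.69 ± 0.18 in R502W mavacamten against WT control. The last of these was called, but the call ended in 7 of the 13 fits that left out 1 library each (without R502W mavacamten replicate 1, 2 or 4, WT control replicate 1, 3 or 4, or R502W control replicate 2), in which the value over all 13 ran from 0.52 to 0.84. The lowest Ankrd1 values of the treated and the WT hearts came from R502W mavacamten replicate 3 and WT control replicate 3. Those libraries, and R502W control replicate 1, also held 6.23, 8.33 and 1.57 CPM of Bmp10, a growth factor gene of the atria, against 307 to 672 CPM in the other 10. R502W control replicate 1 was not low in Ankrd1, at 1962 CPM, and the lowest of its group was replicate 4 at 1622 CPM. With the 3 libraries low in Bmp10 left out, the Ankrd1 log2 fold change was 0.81 in R502W control against WT control. It was then -0.05 in R502W mavacamten against R502W control and 0.76 in R502W mavacamten against WT control. The 10 atrial markers examined, Bmp10 among them, summed to 3382 to 6704 CPM in R502W mavacamten hearts (lowest to highest library). They summed to 4487 to 8773 CPM in R502W control and 4149 to 8731.5 CPM in WT control hearts. Low Bmp10 refers to that gene only, and whether the 3 libraries low in it held less atrial tissue was not tested. The part of atrial content in the Ankrd1 values was not tested beyond this.

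Ankrd23 separated the 3 groups. Ankrd23 (chr1:36530188-36536883, minus strand) stood at 627, 439.9, 461 and 428 CPM in R502W mavacamten, at 689, 659, 801 and 632 CPM in R502W control and at 252, 237, 226, 198 and 270.1 CPM in WT control. As for Xirp2, the 3 groups formed 3 ranges without overlap, although R502W mavacamten replicate 1 reached close to the lowest R502W control value. The log2 fold change was 1.55 ± 0.13 in R502W control against WT control, -0.51 ± 0.13 in R502W mavacamten against R502W control and 1.05 ± 0.13 in R502W mavacamten against WT control. Without R502W mavacamten replicate 1 the second of these was -0.65, and it was still not called. The ratio of Ankrd1 to Ankrd23 per kb of exon was 2.8, 2.86, 2.07 and 4.34 in R502W mavacamten, 2.66, 2.92, 2.08 and 2.4 in R502W control and 3.58, 4.42, 3.03, 4.46 and 3.66 in WT control. Every R502W control library was below every WT library in this ratio, and the treated hearts overlapped both groups. The other gene of this family, Ankrd2, was below 1 CPM in every library. Ankrd23 shares exon sequence with the gene model Gm42417 on the same strand, to which a mean expected count of 0.4 was assigned.

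**Figure D2:**
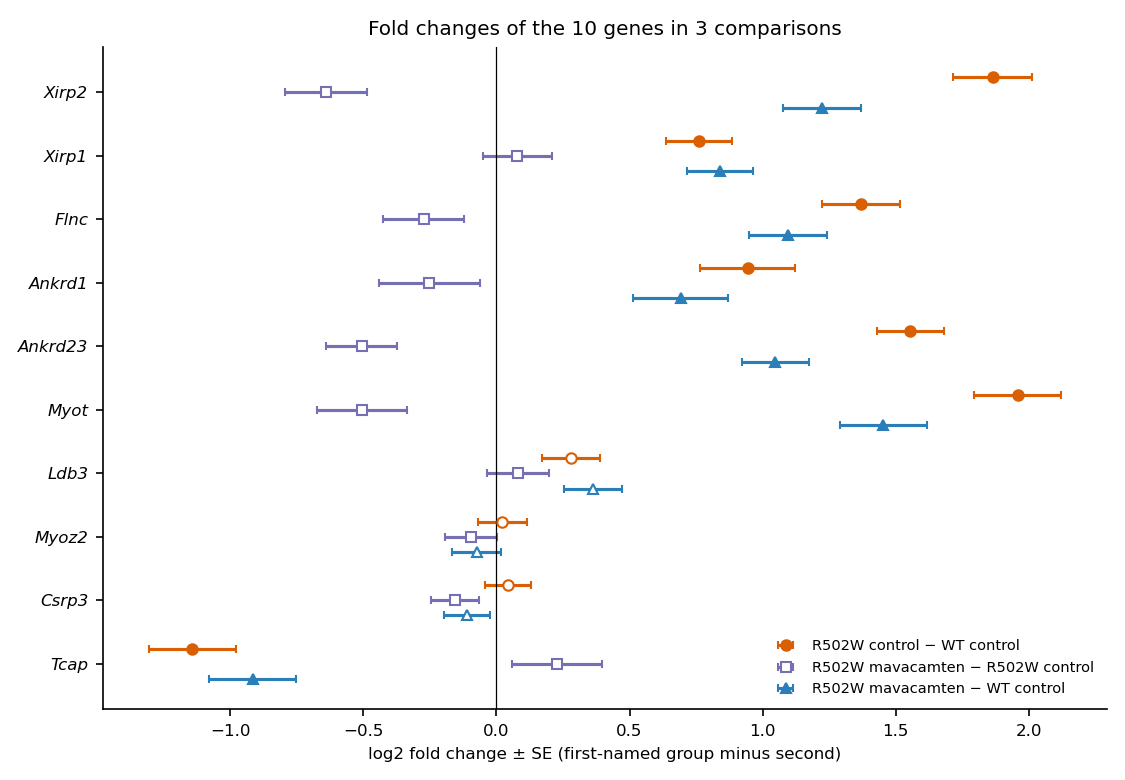
Log2 fold change ± SE (x axis) of the 10 genes (y axis) in 3 comparisons: R502W control against WT control (orange circles), R502W mavacamten against R502W control (purple squares) and R502W mavacamten against WT control (blue triangles). Filled symbols are called; Xirp2, Flnc, Ankrd1, Ankrd23 and Myot have purple squares left of 0 and orange and blue symbols right of it, and Tcap has the opposite signs.

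Tcap was the one gene of the 10 that was lower in R502W than in WT hearts without overlap. Tcap (chr11:98383811-98384953, plus strand) stood at 689.8, 962, 606 and 555 CPM in R502W mavacamten, at 540.1, 544, 599 and 720.2 CPM in R502W control and at 1471, 1288, 1069, 1258 and 1549 CPM in WT control. All 8 R502W libraries lay below all 5 WT libraries, and the 2 R502W groups overlapped. Log2 fold changes were -1.14 ± 0.16 in R502W control against WT control, 0.23 ± 0.17 in R502W mavacamten against R502W control and -0.92 ± 0.16 in R502W mavacamten against WT control. The treated heart with the highest Tcap, replicate 2, moved the second of these to 0.05 when it was left out. The Tcap to Csrp3 ratio per kb of exon was 2.41, 3.17, 1.94 and 2.1 in R502W mavacamten, 1.78, 1.71, 1.67 and 2.25 in R502W control and 4.24, 3.91, 3.74, 4.2 and 4.92 in WT control. Their proteins are partners at the Z-disc, and the ratio of their transcripts was lower in every R502W library than in every WT library.

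**Figure D3:**
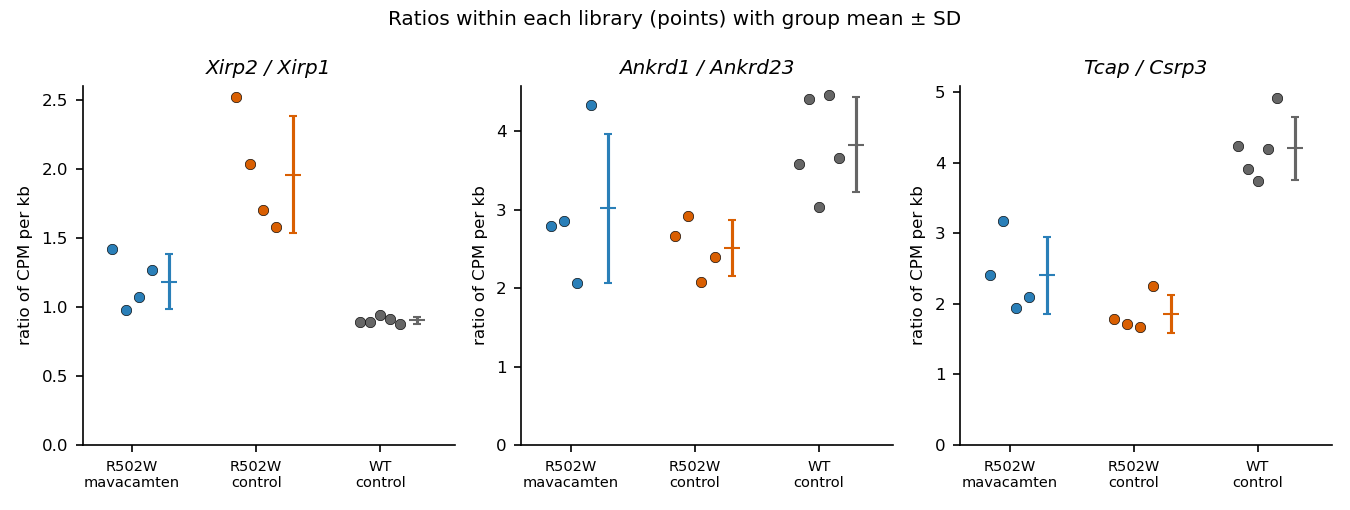
Ratio of CPM per kb of exon for 3 pairs of genes (y axes, from 0) in R502W mavacamten, R502W control and WT control hearts (x axis); points are libraries and bars group means ± SD (n = 4, 4 and 5). The Xirp2 to Xirp1 ratio forms 3 separate ranges, the Ankrd1 to Ankrd23 ratio overlaps between treated hearts and both other groups, and the Tcap to Csrp3 ratio is below WT in both R502W groups.

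Of the 10 genes, Csrp3, Myoz2 and Ldb3 differed least from WT control. Csrp3 (chr7:48830398-48848033, minus strand) stood at 807, 856, 880.4 and 745 CPM in R502W mavacamten, at 855, 897, 1011 and 901 CPM in R502W control and at 977, 929, 805, 844 and 887 CPM in WT control. Myoz2 (chr3:123006206-123035015, minus strand) stood at 449.9, 470, 474 and 382 CPM in R502W mavacamten, at 486, 478, 469 and 467 CPM in R502W control and at 522, 524, 421, 429 and 443 CPM in WT control. The 3 groups overlapped in both genes. The log2 fold change of Csrp3 was 0.04 ± 0.09 in R502W control against WT control and -0.16 ± 0.09 in R502W mavacamten against R502W control. That of Myoz2 was 0.02 ± 0.09 and -0.10 ± 0.10 in the same comparisons. In R502W mavacamten against WT control the log2 fold change was -0.11 ± 0.09 for Csrp3 and -0.08 ± 0.09 for Myoz2. None was called. Myoz2 was the steadiest of the 10 genes in R502W control, with a coefficient of variation of 1.84%. The other calsarcin genes, Myoz1 and Myoz3 of fast skeletal muscle, were below 1 CPM in every library. The Csrp3 relatives Csrp1 and Csrp2, of smooth muscle and other cells, averaged 55.5 ± 20.6 and 21.8 ± 10.9 CPM in R502W mavacamten, 48.0 ± 3.93 and 17.6 ± 2.77 CPM in R502W control and 64.4 ± 10.03 and 31.2 ± 8.60 CPM in WT control. Neither was called in the genotype comparison (log2 fold changes -0.42 ± 0.19 and -0.83 ± 0.28; edgeR adjusted p = 0.164 and 0.0669), although every R502W control library lay below every WT library in Csrp2. Csrp2 was called lower by DESeq2, with only the 2 groups compared, and without R502W mavacamten replicate 3 or 4 or WT control replicate 1. Csrp1 was called lower with only the 2 groups compared and without R502W mavacamten replicate 4.

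Ldb3 lay between these genes and those that stood apart. Ldb3 (chr14:34526603-34588682, minus strand) stood at 985, 1133, 1076 and 866 CPM in R502W mavacamten, at 879, 940.3, 1019 and 999 CPM in R502W control and at 855, 636, 749, 845 and 864.5 CPM in WT control. Both R502W groups lay just above the WT range, by less than the spread within a group. Log2 fold changes were 0.28 ± 0.11 in R502W control against WT control, 0.08 ± 0.12 in R502W mavacamten against R502W control and 0.36 ± 0.11 in R502W mavacamten against WT control, and none was called. A partner and a relative of Ldb3 were measured beside it. Actn2, the α-actinin of the Z-disc itself, averaged 1819 ± 156 CPM in R502W mavacamten, 1828 ± 114.5 CPM in R502W control and 1552 ± 130.2 CPM in WT control, a genotype difference of 0.24 ± 0.09 that was not called (edgeR adjusted p = 0.109). Pdlim5, a PDZ and LIM domain relative of Ldb3, averaged 500.1 ± 71.6 CPM in R502W mavacamten, 501 ± 36.7 CPM in R502W control and 348 ± 49.4 CPM in WT control, and rose by 0.53 ± 0.12 in R502W control against WT control (edgeR adjusted p = 0.0131). The Pdlim5 call ended when the length trend was removed and without the 3 low-Bmp10 libraries.

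In R502W control against WT control, 6 of the 10 genes were called higher and 1 lower, beside 8.63% and 3.75% of all genes tested. The groups did not overlap in 7 genes that were higher, Ldb3 among them, and in 1 that was lower, beside 12.3% and 5.45% of all genes. In R502W mavacamten against WT control, 6 were called higher and 1 lower, beside 5.93% and 2.29% of all genes. There 6 were higher without overlap and 1 lower, beside 8.54% and 3.79%; Ankrd1 overlapped WT and Ldb3 did not. In R502W mavacamten against R502W control edgeR called 0 of the 10 genes and 0% of all genes tested. At an unadjusted p under 0.05 there were 3 of the 10, and 525 genes in all (3.5%), while DESeq2 called 6 genes, none of them among the 10. The groups did not overlap in Xirp2 and Ankrd23, both lower in the treated hearts, beside 1.58% of all genes. The 7 calls in the genotype comparison were kept in each of the 13 fits without 1 library and in the other alternatives run. Leaving out the 3 low-Bmp10 libraries ended the calls of Xirp1, Ankrd1 and Tcap in R502W mavacamten against WT control, at log2 fold changes of 0.79, 0.76 and -0.94, in a fit with fewer libraries. Ldb3 was called higher there by DESeq2. Treated hearts also differed among themselves: R502W mavacamten replicate 1 had the highest Xirp2, Myot and Ankrd23 of the 4. Without it, the log2 fold change of R502W mavacamten against R502W control was -0.72 for Xirp2 and -0.70 for Myot, and neither was called.

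**Figure D4:**
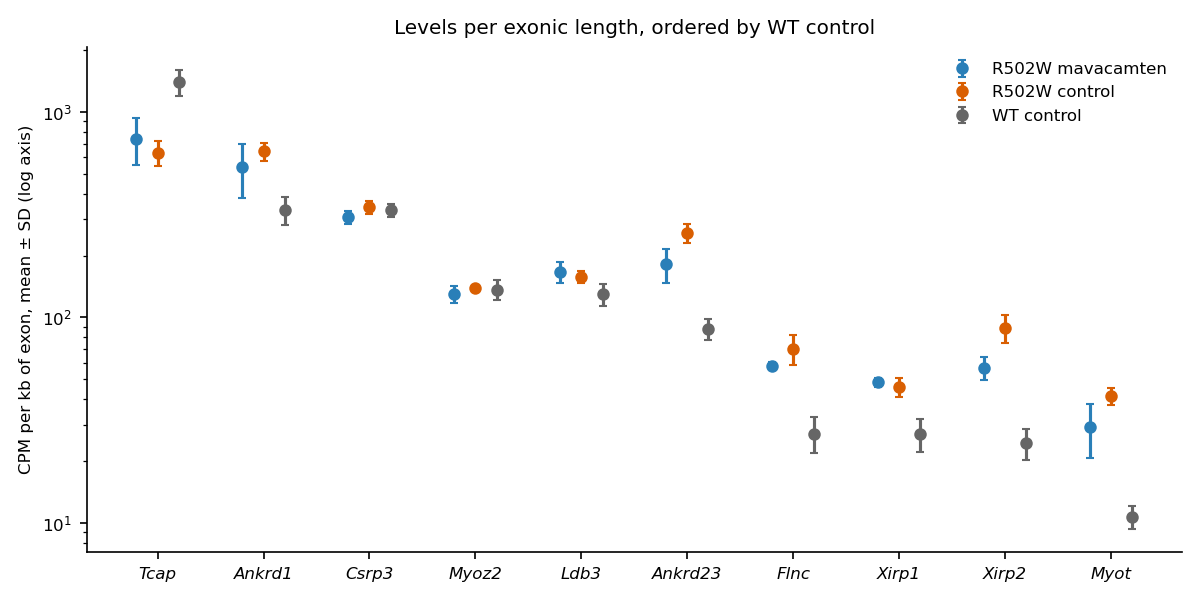
CPM per kb of exon (y axis, log scale, mean ± SD) of the 10 genes (x axis, ordered by the WT control mean) in R502W mavacamten (blue, n = 4), R502W control (orange, n = 4) and WT control (grey, n = 5). Tcap is highest in WT control at 1400 CPM per kb, Myot lowest at 10.7, and Xirp2 and Xirp1 lie close together in WT control, with Xirp2 above Xirp1 in R502W control.

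Counts per kb of exon allow levels to be compared roughly between the genes. Length was taken over all annotated exons of a gene, not over the transcripts in use, which were not determined. Neighbours in each order are called apart here only where their mean ± SD ranges do not overlap. In R502W mavacamten the mean CPM per kb was 742 ± 191 for Tcap, 539.9 ± 157 for Ankrd1, 308 ± 22.4 for Csrp3, 181 ± 34.4 for Ankrd23, 166 ± 19.1 for Ldb3, 129.8 ± 12.4 for Myoz2, 58.2 ± 2.40 for Flnc, 57.0 ± 7.46 for Xirp2, 48.4 ± 2.46 for Xirp1 and 29.2 ± 8.60 for Myot (SD, n = 4). Tcap and Ankrd1, Ankrd23 and Ldb3, Flnc and Xirp2, and Xirp2 and Xirp1 were not apart in the treated hearts. In R502W control Ankrd1 at 643 ± 66.7 and Tcap at 634 ± 88.5 CPM per kb were not apart, and Csrp3 at 343 ± 24.9, Ankrd23 at 258 ± 27.5, Ldb3 at 157 ± 10.3 and Myoz2 at 139 ± 2.56 followed, each apart from the next. Xirp2 at 88.8 ± 14.0 CPM per kb was not apart from Flnc at 70.3 ± 11.7, nor Xirp1 at 45.8 ± 4.80 from Myot at 41.5 ± 3.93. In WT control Tcap stood alone at 1400 ± 199 CPM per kb. Ankrd1 at 334 ± 51.1 and Csrp3 at 333 ± 25.4 were not apart there, nor were Myoz2 at 137 ± 14.9 and Ldb3 at 129 ± 16.0. Ankrd23 followed at 87.8 ± 10.2 CPM per kb. Flnc at 27.2 ± 5.46, Xirp1 at 27.0 ± 4.97 and Xirp2 at 24.4 ± 4.25 were not apart, and Myot was last at 10.7 ± 1.37.

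Exonic length ran from 948 bases in Tcap to 11979 bases in Xirp2 among the 10 genes. The very long titin transcript Ttn reached 2932 to 3835 CPM in 4 WT hearts, and 1619 CPM in the remaining one, WT control replicate 2. WT control replicate 2 was also the lowest WT library in 5 of the 10 genes (Xirp1, Xirp2, Myot, Flnc and Ldb3), and it held 94.0 CPM of the lymphocyte gene Rag1, which was at most 1.63 CPM elsewhere. Without it the genotype log2 fold change was 1.73 for Xirp2, 0.63 for Xirp1 and 1.23 for Flnc. With each library's trend on exonic length removed, it was 1.59 for Xirp2, 1.17 for Flnc and 0.69 for Xirp1. It was 2.06 for Myot, 1.64 for Ankrd23, 1.03 for Ankrd1 and -0.98 for Tcap, and all 7 calls were kept. The long Xirp2, Flnc and Xirp1 moved towards 0 and the shorter Myot, Ankrd1 and Ankrd23 moved away from it, while Tcap, the shortest, moved towards 0.

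**Figure D5:**
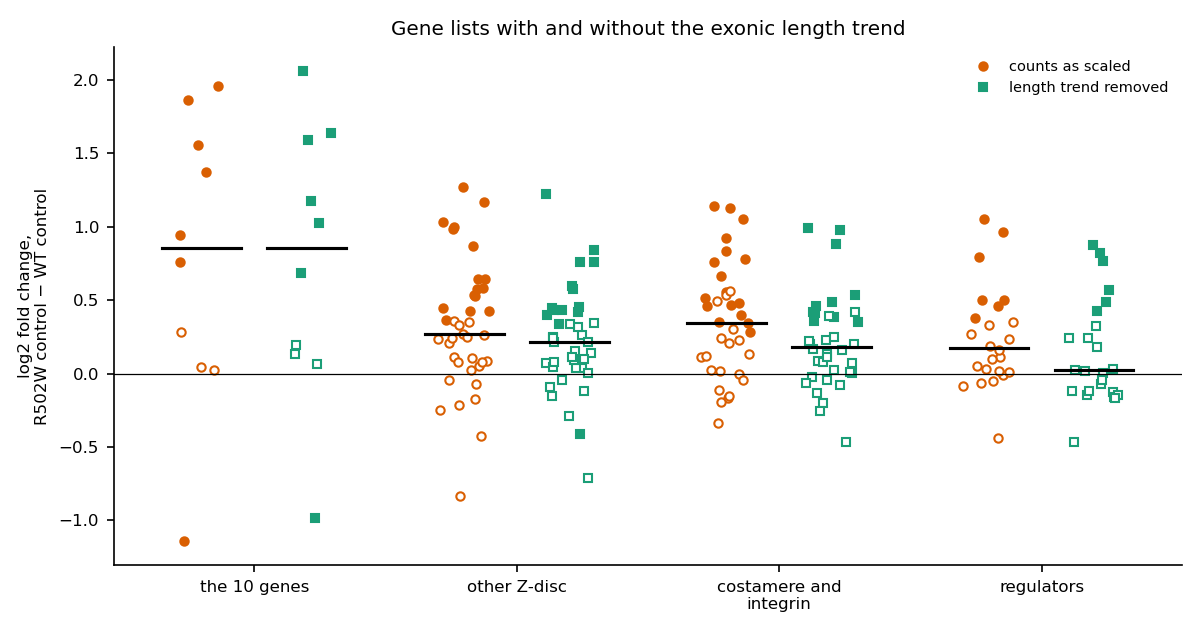
Log2 fold change of R502W control against WT control (y axis) for the 10 genes, 39 other Z-disc genes, 36 costamere and integrin genes and 24 regulators (x axis), from the counts as scaled (orange circles) and with each library's length trend removed (green squares); filled symbols are called and black lines are medians. The median of the regulators is 0.18 with the counts as scaled and 0.02 with the length trend removed, and that of the 10 genes is 0.85 and 0.86.

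Other genes of the Z-disc and its surroundings also moved. Of 42 listed Z-disc genes, 39 were tested, and 16 rose and 0 fell in R502W control against WT control. Among all genes tested, 8.63% were called higher and 3.75% lower. The list's median log2 fold change was 0.27, beside -0.01 for all genes. Plec, Filip1, Obsl1, Synpo2l and Cavin4 were among the 6 with the smallest adjusted p. Plec, which encodes the crosslinker plectin, was at 407, 442.5, 494 and 447 CPM in R502W mavacamten, at 485, 486, 533 and 452 CPM in R502W control and at 232, 178, 182, 245 and 251 CPM in WT control. It rose by 1.17 ± 0.11 in R502W control against WT control (edgeR adjusted p = 6.55e-05), with no overlap. Obsl1, a cytoskeletal adaptor, rose by 0.57 ± 0.09 (edgeR adjusted p = 0.00173). Filip1, a filamin-binding protein, rose by 1.27 ± 0.19 (edgeR adjusted p = 0.00137), and by at least 1.07 with any 1 library left out. Its lowest library was WT control replicate 2, at 21.4 CPM. Synpo2l, a Z-disc actin bundler, rose by 0.87 ± 0.14 (edgeR adjusted p = 0.00197). Cavin4, a muscle caveolar protein, rose by 0.64 ± 0.11 (edgeR adjusted p = 0.00231). Others that rose were Bag3, Des, Mypn, Nexn, Pdlim5, Prkca, Syne1, Synpo2 and Ttn. With the length trend removed 12 of the 16 calls were kept. The genes that lost theirs were Ttn (log2 fold change 0.09, against 0.98 as scaled), Synpo2 (0.16, against 0.45), Prkca (0.24, against 0.42) and Pdlim5, while Syne1 kept its call at 0.43, against 1.03 as scaled. In R502W mavacamten against WT control 12 rose and 0 fell (median 0.29, beside 0.00 for all genes). Of all genes tested, 5.93% rose and 2.29% fell there. Among the 12 were Plec at 1.04 ± 0.11 (edgeR adjusted p = 0.000333) and Obsl1 at 0.51 ± 0.09 (edgeR adjusted p = 0.00753). Filip1 at 1.06 ± 0.19 (edgeR adjusted p = 0.00812), the nuclear envelope protein gene Syne1 at 0.99 ± 0.18 (edgeR adjusted p = 0.00923) and Nexn at 0.59 ± 0.13 (edgeR adjusted p = 0.0152) also rose. With the length trend removed 6 of these 12 calls were kept, that of Syne1 among them at 0.41. Between treated and untreated R502W hearts edgeR called none of the 39, and 1 had an unadjusted p under 0.05. Without R502W mavacamten replicate 2 or 3 the count of 12 in R502W mavacamten against WT control was 6 or 5, and the Nexn call ended without either. Without the 3 low-Bmp10 libraries the counts were 7 in R502W control and 2 in R502W mavacamten.

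Costameres couple the Z-disc to the membrane and matrix. Of 36 listed costamere and integrin genes, all tested, 17 rose and 0 fell in R502W control against WT control. Their median log2 fold change was 0.35, beside -0.01 for all genes tested, of which 8.63% rose and 3.75% fell. Nrap, which links actin filaments to the membrane at the cell's ends, was at 798, 774, 824 and 834 CPM in R502W mavacamten, at 1064, 999, 1092 and 852.5 CPM in R502W control and at 540.3, 406, 430.3, 513 and 526 CPM in WT control. It rose by 1.05 ± 0.10 (edgeR adjusted p = 7.19e-05), and the 3 groups formed separate ranges. Sgcd, a sarcoglycan of the dystrophin complex, rose by 1.13 ± 0.22 (edgeR adjusted p = 0.00577). Sorbs2, an adaptor of the Z-disc and intercalated disc, rose by 0.92 ± 0.15 (edgeR adjusted p = 0.00198), or by 0.41 with the length trend removed. Both Sgcd and Sorbs2 were lowest in WT control replicate 2, at 3.6 and 147 CPM. With any 1 library left out they rose by at least 0.91 and 0.75. Tln1, talin, rose by 0.46 ± 0.08 (edgeR adjusted p = 0.00399), Parvb, which binds integrin-linked kinase, by 0.48 ± 0.10 (edgeR adjusted p = 0.00715) and Pxn, paxillin, by 0.34 ± 0.07 (edgeR adjusted p = 0.00754). The calls of Tln1 and Pxn ended with the length trend removed, which left 11 of the 17 called. Without R502W control replicate 2 the count was also 11, and without the 3 low-Bmp10 libraries it was 2, in a fit with fewer libraries. Among the calls that ended there were those of Sgcd at 1.15, Tln1 at 0.42, Parvb at 0.48 and Pxn at 0.32. In R502W mavacamten against WT control 11 rose and 1 fell (median 0.30, beside 0.00 for all genes tested, of which 5.93% rose and 2.29% fell). The gene that fell was Ilk, integrin-linked kinase, at -0.26 ± 0.07 (edgeR adjusted p = 0.036), named after its value was seen. Among those that rose, Sgcd was at 1.17 ± 0.22 (edgeR adjusted p = 0.0093), Sorbs2 at 0.87 ± 0.15 (edgeR adjusted p = 0.00629) and Nrap at 0.74 ± 0.10 (edgeR adjusted p = 0.0021). Dmd, dystrophin, was at 0.87 ± 0.19 (edgeR adjusted p = 0.0181), Svil, supervillin, at 0.75 ± 0.16 (edgeR adjusted p = 0.0135) and Tln1 at 0.38 ± 0.08 (edgeR adjusted p = 0.0163). With the length trend removed 5 of the 12 calls were kept, with Dmd at 0.42 and Sorbs2 at 0.38, and the calls of Tln1 (0.16) and Ilk (-0.17) ended. The Ilk call also ended without R502W control replicate 1 or 4, R502W mavacamten replicate 1, 2 or 3, or WT control replicate 3. The count of 12 was between 4 and 7 without any 1 of 9 libraries: each of the 4 R502W mavacamten libraries, R502W control replicates 1, 2 and 4, and WT control replicates 1 and 3. The calls of Dmd and Svil ended without R502W mavacamten replicate 2 or 3 and that of Tln1 without replicate 4. Between treated and untreated R502W hearts edgeR called none of the 36, and 1 had an unadjusted p under 0.05.

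Transcription factors and cofactors that act on promoters of muscle stress genes formed the third list. Of 24 tested, 7 rose and 0 fell in R502W control against WT control: Srf, Tead1, Myocd, Wwtr1, Yap1, Tead4 and Mrtfb. The list's median was 0.18, beside -0.01 for all genes tested, of which 8.63% rose and 3.75% fell. Tead1, which binds the M-CAT motif, was at 219, 226, 233 and 179 CPM in R502W mavacamten, at 263, 251, 295 and 218 CPM in R502W control and at 138, 63.5, 129, 141 and 148 CPM in WT control. It rose by 1.05 ± 0.19 in R502W control against WT control (edgeR adjusted p = 0.0045), and WT control replicate 2 was its lowest library. Srf, which binds the CArG box, rose by 0.50 ± 0.08 (edgeR adjusted p = 0.00226), and its cofactor Myocd by 0.97 ± 0.22 (edgeR adjusted p = 0.0126). Myocd was also lowest in WT control replicate 2, at 11.5 CPM, and rose by at least 0.74 with any 1 library left out. The TEAD cofactors Wwtr1 and Yap1 rose by 0.46 ± 0.11 (edgeR adjusted p = 0.0194) and 0.38 ± 0.10 (edgeR adjusted p = 0.0266), and Tead4, at under 4 CPM everywhere, by 0.80 ± 0.22 (edgeR adjusted p = 0.0324). The count of 7 was 3 without R502W control replicate 2 or 3 and 4 without WT control replicate 3, and the calls of Yap1 and Tead4 were among those that ended each time, with that of Wwtr1 ending in the first 2 of these fits. The Tead4 call also ended without R502W control replicate 4 or WT control replicate 1 or 2, and the Yap1 call without R502W control replicate 4 or R502W mavacamten replicate 2. Without the 3 low-Bmp10 libraries the count was 1. With the length trend removed 5 of the 7 calls were kept, and those of Yap1 (0.18) and Mrtfb (0.32) ended. The list's median was then 0.02, beside -0.03 for all genes. In R502W mavacamten against WT control 5.93% of all genes tested rose and 2.29% fell. Of the 24 regulators 4 rose and 0 fell there: Srf by 0.36 ± 0.08 (edgeR adjusted p = 0.0225), Tead1 by 0.79 ± 0.19 (edgeR adjusted p = 0.0273), Myocd by 0.87 ± 0.22 (edgeR adjusted p = 0.0297) and Yap1 by 0.36 ± 0.10 (edgeR adjusted p = 0.0425). That count was 0 without R502W mavacamten replicate 1, 2 or 3, 2 without replicate 4, and 1 without R502W control replicate 2 or WT control replicate 3. Removing the length trend kept 2 of the 4 calls, and those of Tead1 (0.51) and Yap1 (0.17) ended. Between treated and untreated R502W hearts edgeR called none of the 24, and 0 had an unadjusted p under 0.05.

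Markers of other tissues were set beside these values because most of the 10 genes are also used in skeletal muscle. Of 15 skeletal muscle markers, 7 were below 1 CPM in every library. Without Ckm and Mybpc2, which the heart also expressed, the other 13 summed to 5.02 to 7.46 CPM in R502W mavacamten, 6.13 to 11.6 CPM in R502W control and 5.79 to 13.6 CPM in WT control (lowest to highest library). Mybpc2, the fast skeletal myosin-binding protein C, was at 50.03, 22.1, 19.8 and 42.5 CPM in R502W mavacamten, at 52.5, 57.2, 40.3 and 55.9 CPM in R502W control and at 15.6, 15.7, 13.5, 16.4 and 21.4 CPM in WT control, and rose by 1.64 ± 0.24 in R502W control against WT control (edgeR adjusted p = 0.00133). Ventricular cardiomyocyte markers were present in all libraries and summed to 55038 to 76942 CPM in R502W mavacamten, 58739 to 67866 CPM in R502W control and 43241 to 61868 CPM in WT control, with 1 of 9 called higher in R502W control against WT control. Of 7 fibroblast markers 2 were called higher in that comparison, with summed levels of 1224 to 1661 CPM in R502W mavacamten, 1440.5 to 1691 CPM in R502W control and 1054 to 1564 CPM in WT control. Of 6 endothelial markers 2 were called higher, with summed levels of 584.5 to 805 CPM in R502W mavacamten, 764.5 to 870.4 CPM in R502W control and 514 to 669.5 CPM in WT control. Among all genes tested, 8.63% were called higher and 3.75% lower in R502W control against WT control. None of the fibroblast, endothelial, lung, lymphocyte or adipocyte markers was at 0 in all libraries. Of 5 lung markers 2 were tested, Scgb1a1 and Cyp2f2, and both were called lower in R502W control against WT control. The 5 summed to 2.45 to 140.3 CPM in R502W mavacamten, 0.28 to 1.45 CPM in R502W control and 1.39 to 562 CPM in WT control. T cell and thymus markers summed to 2.05 to 5.14 CPM in R502W mavacamten, 1.35 to 3.33 CPM in R502W control and 1.47 to 533 CPM in WT control, and adipocyte markers to 7.85 to 733 CPM in R502W mavacamten, 4.50 to 493 CPM in R502W control and 17.7 to 738 CPM in WT control. In R502W control against WT control edgeR called 0 of the 4 T cell and thymus markers tested, all 4 of which had an unadjusted p under 0.05, and 0 of the 6 adipocyte markers, 0 of which had one. The part of these cell types in the levels of the 10 genes was not tested.

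The genes whose pattern over the 13 libraries was most like that of Xirp2 and of Tcap were found by the mean absolute difference of log2 CPM, each gene centred on its own mean. For Xirp2 these were Adam19 (0.231), Rcan1 (0.234), Tnfrsf12a (0.249), Abra (0.261) and Soga1 (0.273). Of these, Rcan1 averaged 118 CPM in R502W mavacamten, 186 CPM in R502W control and 65.0 CPM in WT control, and Abra averaged 38.8, 53.5 and 18.4 CPM in the same groups. For Tcap they were Bhlhe41 (0.171), Coq10b (0.183), Il15 (0.185), Tef (0.203) and Lgals4 (0.213). Tef averaged 105 CPM in R502W mavacamten, 119 CPM in R502W control and 196 CPM in WT control, and Bhlhe41 averaged 25.2, 24.8 and 43.2 CPM in the same groups. The measure ranks likeness of level only.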

How the data were processed

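Strand-specific libraries of polyadenylated RNA from whole mouse hearts were sequenced, per the labels' protocols. From these the authors estimated expected counts of Ensembl genes with RSEM on GRCm38, per the submitters' processing notes, which also name cutadapt, FastQC and DESeq2 without versions. The aligner and the strand setting of the counting are not given in the sources used here. Columns were assigned to samples through the library names of the labels. Of 55471 gene IDs, 55144 matched a GENCODE symbol, and 5.76% of the values were fractional.

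The rounded counts were fitted with edgeR 4.0.16 under R 4.3.3. Low genes were removed by filterByExpr (minimum count 10, minimum total 15), which left 15000, and libraries were scaled by TMM. All 13 libraries entered 1 quasi-likelihood fit with a mean for each group, the 3 comparisons were contrasts, and the Benjamini-Hochberg adjustment ran across the genes tested. The biological coefficient of variation was 0.232. The count test was also run on simulated counts in which chosen genes had been shifted. Its outcome is not given here. The simulated counts did not carry the differences in tissue content between single libraries, so nothing is concluded from them. The 22 pairs of libraries within groups differed beyond sampling noise (chi-square per degree of freedom 7.74 to 112), so each counted as 1 sample. Length was the exonic length of the gene in GENCODE M21, and its trend was removed per library by a lowess curve (span 0.3). Depths are given with the samples. Counting error was not compared with the spread between libraries gene by gene. It weighs more at low counts, as in Tead4 at 22 to 61 expected counts, against 321 to 1805 in Myot.

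The 10 genes, the lists and the tests were chosen with earlier results of these data known. Named beside the 10 genes were their family members, up to 6 called genes per list and comparison with the smallest adjusted p, and the 5 genes nearest in pattern to Xirp2 and to Tcap, among genes averaging 10 CPM or more (pseudocount 0.5 CPM). A few genes named by this rule are left out of the text. Alternatives were RLE scaling, no filter, DESeq2 1.42.0, only the 2 groups compared, each library left out, the sample number as a block, the length trend removed, and leaving out the 3 libraries low in Bmp10. Promoter windows came from a RefSeq table on GRCm38.p6.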

Additional observations from a re-analysis of the deposited data

Results flagged for a closer look

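Ankrd23 in R502W mavacamten replicate 1 stood far from the other treated hearts, at 626.7 CPM against 428.1 to 461.4 CPM in the other 3, a gap of 0.832 of the group's range. Pdlim5 in R502W control replicate 3 was at 555.3 CPM against 474.3 to 487.6 CPM in the other 3 of its group, a gap of 0.836. Both exceed the critical value of Dixon's test at this group size. In all, 54 gene and group combinations were examined, of which chance alone would flag about 1 in 20.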

How the results depend on the processing

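The 7 genotype calls among the 10 genes were kept in every alternative run, and 0 of the 10 were called in R502W mavacamten against R502W control in any, where DESeq2 called 6 genes and the other alternatives none. The sample numbers do not pair the libraries (12 same-number pairs, r from -0.323 to 0.253, 1 over 0.1, 0 of 12 libraries correlated best with their own number). With the number as a replicate block, R502W control against WT control gave 963 genes, 10 other Z-disc genes and 3 regulators, and R502W mavacamten against WT control gave 349 genes, 5 other Z-disc, 3 costamere and 0 regulator genes. Without the 3 low-Bmp10 libraries the genotype comparison gave 404 genes, 7 other Z-disc, 2 costamere and 1 regulator genes, and R502W mavacamten against WT control gave 86 genes, 4 of the 10, 2 other Z-disc, 1 costamere and 0 regulator genes. That setting has fewer libraries. With the length trend removed, 11 costamere genes were called in the genotype comparison, and 627 genes, 5 costamere genes and 2 regulators in R502W mavacamten against WT control. With no filter, 4 regulators were called in the genotype comparison, and 740 genes, 6 costamere genes and 2 regulators in R502W mavacamten against WT control. RLE scaling gave 7 costamere genes there. With only the 2 groups compared, R502W mavacamten against WT control gave 216 genes, 3 other Z-disc, 3 costamere and 0 regulator genes. The cause of these differences was not tested. With 1 library left out, the genotype comparison called 866 to 1870 genes, 12 to 18 other Z-disc, 11 to 18 costamere and 3 to 7 regulator genes. The lowest counts were without R502W control replicate 1 (1040), 2 (866) or 3 (914). R502W mavacamten against WT control called 359 to 1213 genes, 6 to 7 of the 10, 5 to 11 other Z-disc, 4 to 13 costamere and 0 to 4 regulator genes. Its lowest gene counts were 359 without R502W mavacamten replicate 2 and 462 without replicate 3, with 681 without replicate 1, 692 without replicate 4, 716 without R502W control replicate 2 and 688 without WT control replicate 3. Flna changed sign with the length trend removed, to -0.092 in the genotype comparison and -0.023 in R502W mavacamten against WT control. With 1 library left out, it ran from -0.036 to 0.214 in the genotype comparison, below 0 without R502W control replicate 2 or WT control replicate 1 or 2, and from -0.134 to 0.266 in R502W mavacamten against WT control, below 0 without R502W mavacamten replicate 4. Among named genes outside the 10, 849 alternative values kept their call and direction, 137 lost the call, 8 gained it and 6 changed sign. With groups of 4 and 5, the differences of Csrp3 and Myoz2 from WT control were not resolved.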
